A study of Arabidopsis thaliana with 28 samples.

Results

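The clade A protein phosphatases 2C of Arabidopsis thaliana are a family of 9 genes, ABI1, ABI2, HAB1, HAB2, HAI1, HAI2, HAI3, AHG1 and PP2CA, matched by locus tag among 36632 genes of the count tables. Their transcripts were measured by RNA-seq in 12-day-old seedlings. The series asks how histone deacetylation and the histone variant H2A.Z bear on gene activity. The mutant groups were h2a.z-5, a triple mutant with a frameshift allele of HTA8 and the T-DNA lines SALK_054814 and SALK_017235, hda6-1 (SALK_201895C), hda9-1 (SALK_007123), and the combined lines, hda6-1 h2a.z-5 with the first deacetylase mutation and hda9-1 h2a.z-5 with the other. These and wild-type Col-0 grew on soil, with 3 libraries each. A second set of Col-0 seedlings, grown in MS medium with 1% sucrose, held 5 libraries treated with trichostatin A (TSA), an inhibitor of histone deacetylases, and 5 Mock libraries. Dose and duration of TSA were not stated in the labels. Seeds had 4 days of cold at 4 °C before growth in long days at 21 °C. Groups are called h2a.z-5 as their sample labels have it, although the series' design text writes nrp1-1 nrp2-2 there. Each mutant line is a single allele combination with no complemented line in these data.

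Abscisic acid (ABA) is the plant hormone of drought response and seed dormancy. Clade A phosphatases hold the pathway off by dephosphorylating SnRK2 kinases. When ABA binds a receptor of the PYR/PYL family, the receptor docks on the phosphatase and blocks it, and the freed kinases phosphorylate the ABF and ABI5 transcription factors. Many of the phosphatase genes are themselves switched on by ABA, which closes a feedback loop. ABI1, ABI2, HAB1 and HAB2 are best known from vegetative tissue, AHG1 and PP2CA from seeds, and HAI1 to HAI3 as strongly ABA-responsive members.

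The libraries held 32795474 to 39633678 counts in the genotype table and 30257874 to 40395659 in the TSA and Mock table. The summed level of 4 green-tissue markers was at 11368 to 59101 CPM (counts scaled to a common library total, with TMM factors), and 4 root markers summed to 0.541 to 1.61 CPM on soil against 27.3 to 127 CPM in TSA and 50.4 to 69.1 CPM in Mock seedlings, with EXPA7 at 0 in all soil libraries. HDA9 was at 1.50 to 1.71 CPM in hda9-1 and at 12.0 to 15.2 CPM in Col-0, and HTA11, an H2A.Z gene, at 1.28 to 2.05 CPM in h2a.z-5 and at 52.9 to 70.9 CPM in Col-0. HDA6 transcript was not low under its label. It stood at 102 to 158 CPM where the label is hda6-1 and at 15.7 to 17.8 CPM where it is hda6-1 h2a.z-5, against 12.8 to 18.9 CPM in Col-0. The HDA6 level thus gives no check of these labels, and directions drawn from these libraries rest on the label. Replicate 5 of TSA and Mock stood apart from replicates 1 to 4. The morning clock gene CCA1 was at 12.4 CPM in TSA replicate 5 and 79.7 to 173 CPM in the other TSA libraries, and at 10.2 CPM in Mock replicate 5 and 274 to 339 CPM in the other Mock libraries. The cold and drought gene RD29A showed 262 CPM in TSA replicate 5 and 2.96 to 10.1 CPM in the other TSA libraries, and 1375 CPM in Mock replicate 5 and 14.6 to 31.7 CPM in the other Mock libraries. Genes with too few counts for the test are described by their levels. The reported tests do not use the replicate number, except where the replicate block is named.

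In RefSeq's TAIR10.1 assembly the members lie apart on all 5 chromosomes. ABI1 (AT4G26080) is at chr4:13219915-13222376 on the minus strand, ABI2 (AT5G57050) at chr5:23087122-23089631 on the plus strand, HAB1 (AT1G72770) at chr1:27389948-27393327 on the plus strand and HAB2 (AT1G17550) at chr1:6034270-6037398 on the plus strand. HAI1 (AT5G59220) is at chr5:23894404-23896939 on the minus strand, HAI2 (AT1G07430) at chr1:2280746-2282828 on the minus strand and HAI3 (AT2G29380) at chr2:12608675-12610350 on the plus strand. AHG1 (AT5G51760) is at chr5:21026805-21029188 on the plus strand and PP2CA (AT3G11410) at chr3:3583782-3585850 on the minus strand. Only ABI1 overlaps another gene, by 22 bases with AT4G26070 on the other strand, and reads there cannot be told apart because the strand setting of the counting was not stated. The most alike coding sequences were those of ABI1 and ABI2 (79.5% identical bases), HAB1 and HAB2 (79.4%) and HAI2 and HAI3 (77.7%), and the least alike those of HAB2 and HAI2 (64.4%).

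The 250 bases before the annotated start were searched on both strands for ACGTG, the core of the ABA-responsive element that ABF and ABI5 proteins bind. It was in 6 of the 9 members, HAB1, HAB2, HAI2, HAI3, AHG1 and PP2CA. Over all protein-coding genes it was in 22.9% of 27443 windows of the same length. PP2CA held 5 matches, HAI2 4, HAB2, HAI3 and AHG1 2 each and HAB1 1. The longer CACGTG, the G-box, in which ACGTG matches on both strands, was in AHG1 and PP2CA and in 6.49% of all windows. CATGCA, the RY core of seed promoters, was in HAB2 alone among the members and in 8.43% of all windows. The windows of the 3 HAI genes, AHG1 and HAB1 are shown because the results below turn on these genes: HAI1 at chr5:23896940-23897189, minus strand, HAI2 at chr1:2282829-2283078, minus strand, HAI3 at chr2:12608425-12608674, plus strand, AHG1 at chr5:21026555-21026804, plus strand and HAB1 at chr1:27389698-27389947, plus strand. Capitals mark ACGTG or its reverse complement CACGT. A match is a run of letters only, and the window of HAI1 held none.
HAI1: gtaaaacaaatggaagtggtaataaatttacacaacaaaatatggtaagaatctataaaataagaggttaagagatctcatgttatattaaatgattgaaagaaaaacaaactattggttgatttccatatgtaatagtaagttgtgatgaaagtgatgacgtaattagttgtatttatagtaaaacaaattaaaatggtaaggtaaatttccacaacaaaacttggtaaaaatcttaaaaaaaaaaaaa
HAI2: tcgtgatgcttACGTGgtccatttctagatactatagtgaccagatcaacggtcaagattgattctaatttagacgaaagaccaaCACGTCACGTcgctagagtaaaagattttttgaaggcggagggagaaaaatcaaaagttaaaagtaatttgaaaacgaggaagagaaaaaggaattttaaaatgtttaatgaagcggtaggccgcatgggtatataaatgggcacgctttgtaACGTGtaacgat
HAI3: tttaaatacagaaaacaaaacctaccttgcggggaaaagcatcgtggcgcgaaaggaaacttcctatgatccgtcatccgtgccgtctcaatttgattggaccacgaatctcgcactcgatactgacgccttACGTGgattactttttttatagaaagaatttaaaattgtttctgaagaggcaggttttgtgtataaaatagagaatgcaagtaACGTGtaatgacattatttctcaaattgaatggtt
AHG1: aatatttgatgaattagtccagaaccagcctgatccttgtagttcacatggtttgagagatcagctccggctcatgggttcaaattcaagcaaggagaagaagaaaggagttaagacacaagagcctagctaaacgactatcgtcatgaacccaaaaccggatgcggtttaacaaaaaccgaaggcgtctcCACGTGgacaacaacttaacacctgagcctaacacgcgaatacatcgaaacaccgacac
HAB1: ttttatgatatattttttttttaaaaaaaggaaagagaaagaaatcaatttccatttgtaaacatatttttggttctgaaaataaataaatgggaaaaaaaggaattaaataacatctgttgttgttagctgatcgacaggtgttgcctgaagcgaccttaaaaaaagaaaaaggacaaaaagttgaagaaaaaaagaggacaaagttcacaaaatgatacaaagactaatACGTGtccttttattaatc

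HAI1 had the smallest adjusted p of the 9 genes in TSA against Mock. It encodes a phosphatase strongly switched on by ABA and also tied to leaf senescence. It was at 123, 112, 97.7, 128 and 36.8 CPM in TSA libraries 1 to 5, against 15.4, 9.69, 21.9, 9.59 and 12.1 CPM in Mock libraries 1 to 5. Every TSA library lay above every Mock library, and TSA replicate 5 was the lowest TSA library. Averaged, HAI1 rose to 99.6 ± 37.0 CPM in TSA, against 13.8 ± 5.14 CPM in Mock (SD, n = 5 each). The fitted log2 fold change was 2.86 ± 0.37 (SE), 7.24-fold, with a Benjamini-Hochberg adjusted p of 0.000302 in edgeR's quasi-likelihood test, and TSA was higher in 5 of 5 replicate pairs. Without both replicate 5 libraries the log2 fold change was 3.03.

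**Figure D1:**
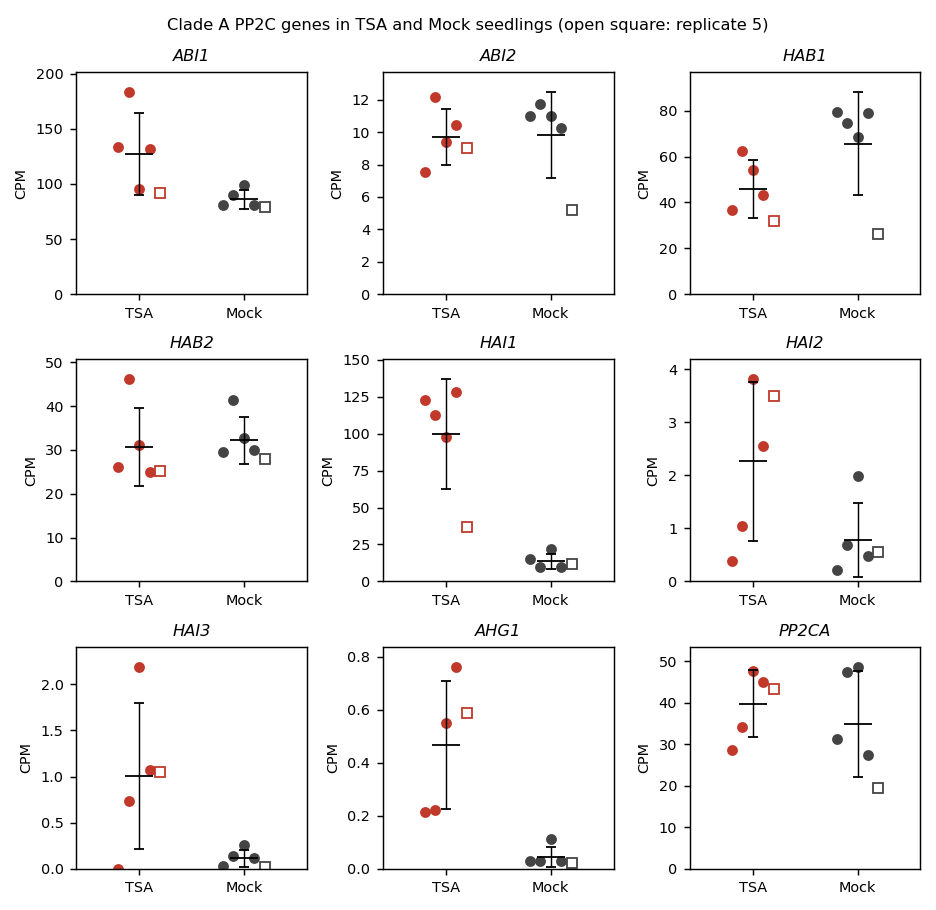
Level of each member in CPM (vertical axes, linear from 0) in TSA (left) and Mock (right) seedlings. Points are libraries, open squares replicate 5, and bars the mean ± SD of 5 libraries. The 5 TSA libraries of HAI1 sit between 36.8 and 128 CPM, above all Mock libraries, while ABI2, HAB2 and PP2CA overlap.

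Of the 9 members, 8 passed the count filter in this table and 2 were called at adjusted p under 0.05, HAI1 and HAI3, both higher in TSA. Over all 20201 genes tested, 35.2% were called, 18.5% higher and 16.7% lower, so the members' share of calls is not above the background. The median log2 fold change of the 8 members was 0.38, beside -0.07 over all genes tested. HAI3, which passed the filter mainly through its TSA libraries, is among the 8 and draws this median up. With library totals alone in place of TMM factors the all-gene median moved to -0.33, and HAI1 and HAI3 were still called higher.

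HAI3, a close relative of HAI2, was near absent in Mock seedlings. It was at 0, 0.730, 2.19, 1.07 and 1.05 CPM in TSA libraries 1 to 5, against 0.0295, 0.143, 0.256, 0.112 and 0.0217 CPM in Mock libraries 1 to 5. The groups overlapped through TSA replicate 1, and the other 4 TSA libraries lay above all Mock libraries. HAI3 had a log2 fold change of 3.16 ± 0.92 (SE; edgeR adjusted p = 0.0209). HAI3 passed the count filter mainly through its TSA libraries, so its call rests on few counts, 185 over the TSA libraries and 20 over the Mock libraries. The call was lost without Mock replicate 1 (adjusted p = 0.0542), and without TSA replicate 3, 4 or 5 the gene did not pass the filter and was not tested.

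HAI2 leaned the same way with less separation. It was at 0.392, 1.05, 3.81, 2.56 and 3.51 CPM in TSA libraries 1 to 5, against 0.207, 0.688, 1.99, 0.474 and 0.564 CPM in Mock libraries 1 to 5. TSA was higher in 5 of 5 replicate pairs, but the groups overlapped. The log2 fold change of 1.53 ± 0.67 (SE) was not called by edgeR (adjusted p = 0.0980). With the replicate number as a block it was called (adjusted p = 0.0159), as it was without Mock replicate 3, where the log2 fold change was 2.21 (adjusted p = 0.0263), and without TSA replicate 1 (adjusted p = 0.0492).

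AHG1, the seed phosphatase that the ABA receptors hardly inhibit and that the dormancy protein DOG1 binds, did not pass the count filter. It had 0.214, 0.222, 0.548, 0.761 and 0.588 CPM in TSA libraries 1 to 5, against 0.0295, 0.0287, 0.114, 0.0279 and 0.0217 CPM in Mock libraries 1 to 5. The groups did not overlap, but the values rest on 83 counts in all TSA libraries and 8 in all Mock libraries. In edgeR without the filter the log2 fold change was 3.32 ± 0.62 (SE; adjusted p = 0.00221), and DESeq2 gave 3.43 (adjusted p = 4.42e-05).

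HAI2, HAI3, AHG1 and the seed-related response gene RD29B were highest in the TSA libraries that were also highest in seed markers. The 5 seed storage and embryo genes CRA1, CRU3, SESA1, OLEO1 and EM1 summed to 14.8, 42.8, 493, 156 and 251 CPM in TSA libraries 1 to 5, against 5.05, 2.55, 21.7, 1.51 and 0.434 CPM in Mock libraries 1 to 5, and none of the 5 was at 0 over either group. TSA replicates 3 to 5 were high for all of these genes. The part of seed-type transcripts in the levels of HAI2, HAI3 and AHG1 was not tested. HAI1 had another order, with its lowest TSA level in replicate 5, which only replicate 3 exceeded in seed markers. In whole seedlings, more cells of a type and more RNA per cell cannot be told apart.

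**Figure D2:**
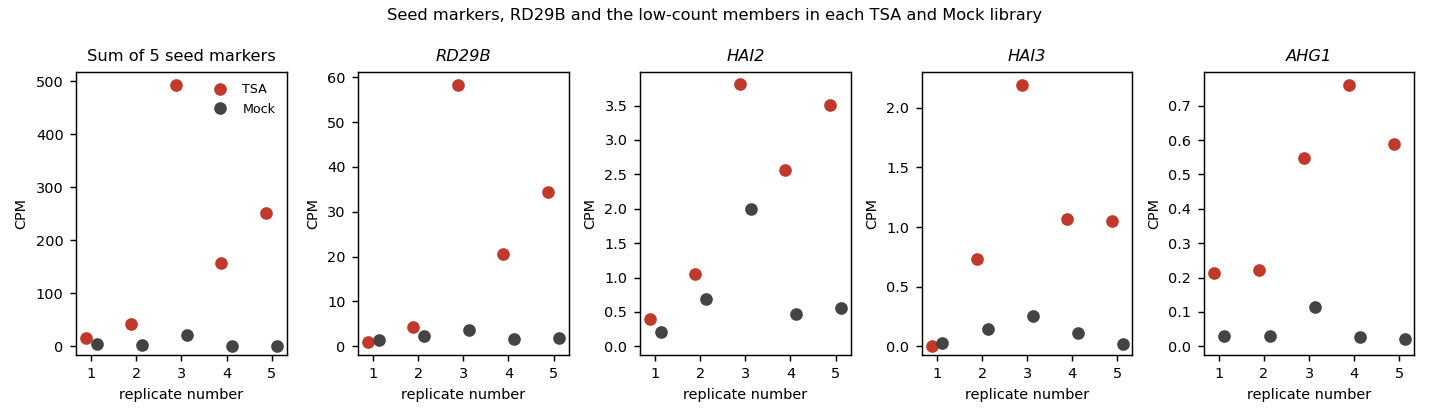
CPM (linear axes) by replicate number for the sum of 5 seed markers, RD29B, HAI2, HAI3 and AHG1, with TSA (red) left of Mock (grey) at each number. Each point is 1 library. TSA libraries 3 to 5 are the high ones in all 5 panels, with seed marker sums of 156 to 493 CPM.

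ABI1, the founding member of the family and the one with the highest mean level in both TSA and Mock, was at 133, 183, 95.6, 132 and 91.6 CPM in TSA libraries 1 to 5, against 81.2, 89.6, 99.4, 80.5 and 79.2 CPM in Mock libraries 1 to 5. TSA was higher in 4 of 5 replicate pairs and the groups overlapped. The log2 fold change of 0.56 ± 0.21 (SE) stood just outside the threshold in edgeR (adjusted p = 0.0588) and inside it in DESeq2 (adjusted p = 0.0465) and in the authors' deposited table (adjusted p = 0.0357). It was called without TSA replicate 3 (adjusted p = 0.0479), without TSA replicate 5 (adjusted p = 0.0246) and without both replicate 5 libraries (adjusted p = 0.0170). With library totals alone the log2 fold change was 0.28, so it depends on the scaling.

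HAB1, a phosphatase that represses ABA signalling in seedlings and guard cells, had the largest negative estimate. It was at 36.6, 62.5, 54.2, 43.5 and 32.0 CPM in TSA libraries 1 to 5, against 79.7, 74.5, 68.7, 79.1 and 26.1 CPM in Mock libraries 1 to 5. Among replicates 1 to 4 every TSA library lay below every Mock library, and Mock replicate 5 lay below all TSA libraries. HAB1 had a log2 fold change of -0.52 ± 0.30 (SE; edgeR adjusted p = 0.204) over all libraries, -0.72 without Mock replicate 5 (adjusted p = 0.0152) and -0.62 without both replicate 5 libraries (adjusted p = 0.0123). These same replicate 5 libraries were the ones with low CCA1 and high RD29A given above. The part of that difference between replicates in the HAB1 values was not tested.

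The other 3 members did not separate TSA from Mock. ABI2 averaged 9.71 ± 1.71 CPM in TSA and 9.83 ± 2.64 CPM in Mock, HAB2 30.7 ± 8.97 CPM in TSA and 32.3 ± 5.35 CPM in Mock, and PP2CA 39.8 ± 8.09 CPM in TSA and 34.9 ± 12.8 CPM in Mock (SD, n = 5 each). Their log2 fold changes were -0.02 ± 0.24 for ABI2, -0.07 ± 0.21 for HAB2 and 0.19 ± 0.27 for PP2CA (SE), with edgeR adjusted p of 0.964 for ABI2, 0.813 for HAB2 and 0.609 for PP2CA. Of the 3 closest pairs of paralogues, HAI2 and HAI3 both had positive estimates. ABI1 had a higher estimate than ABI2, and HAB1 a lower one than HAB2. The reported fit called neither gene in either of these last pairs. Differences within pairs were not tested.

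Levels per length set the members beside each other. Per kilobase of exon, ABI1 was at 58.6 ± 17.0 CPM in TSA and 39.6 ± 3.93 CPM in Mock, and HAI1 at 47.8 ± 17.8 CPM in TSA and 6.60 ± 2.47 CPM in Mock (SD, n = 5 each). In TSA the order was ABI1, HAI1, PP2CA (22.1), HAB1 (16.4), HAB2 (11.6), ABI2 (4.26), HAI2 (1.19), HAI3 (0.674) and AHG1 (0.295 CPM per kilobase). In Mock it was ABI1, HAB1 (23.5), PP2CA (19.4), HAB2 (12.2), HAI1, ABI2 (4.31), HAI2 (0.412), HAI3 (0.0752) and AHG1 (0.0280 CPM per kilobase). HAI1 thus stood directly below ABI1 in TSA and below HAB2 in Mock. In TSA the library ranges separate HAB2 from ABI2 and ABI2 from HAI2 only, and the ranges of all other neighbours overlap. In Mock they separate ABI1 from HAB1, HAB2 from HAI1 and ABI2 from HAI2 only.

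Summed over the 9 genes, the level was 163 ± 33.9 CPM per kilobase in TSA and 106 ± 19.8 in Mock (SD, n = 5 each), with ranges of 112 to 204 in TSA and 75.6 to 126 in Mock that overlap. HAI1 made up 28.5 ± 8.07% of that sum in TSA and 6.27 ± 1.97% in Mock. HAB1 made up 10.1% of it in TSA and 21.7% in Mock, and ABI1 35.8% in TSA and 38.1% in Mock.

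**Figure D3:**
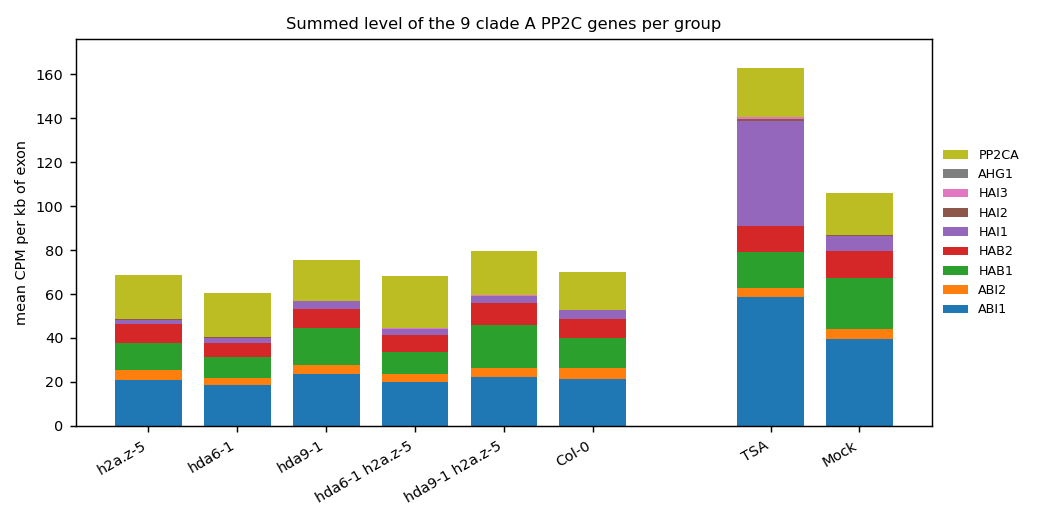
Mean CPM per kilobase of exon (vertical axis, from 0), stacked over the 9 members, for each genotype on soil with Col-0 last and for TSA and Mock in sucrose medium. The soil groups stack to 60.6 to 79.7, and the HAI1 segment is the one that differs most between TSA (47.8) and Mock (6.60).

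The rest of the ABA pathway was read from 67 genes listed by role, of which 59 passed the filter. TSA raised 11 and lowered 8 by edgeR, 32.2% of those tested beside 35.2% of all genes. The 11 include ABI3, ABI4 and NCED2, which passed the filter mainly through their TSA libraries. The median log2 fold change of the 59 genes was -0.29, also with ABI4 set at the lower bound given below. Without Mock replicate 5 the count of calls was 29 (49.2%, beside 43.6% of all genes), without both replicate 5 libraries 38 (64.4% beside 54.4%), and with the replicate block 31 (52.5% beside 44.8%), so the share of all genes called moved up as well.

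Of the 9 receptor genes tested, 4 fell and none rose. That is 44.4% called, beside 35.2% of all genes called and 16.7% called lower. PYL1 fell to 15.9 ± 3.44 CPM in TSA, against 32.1 ± 9.79 CPM in Mock, and PYL9 to 5.19 ± 3.78 CPM in TSA, against 15.5 ± 3.14 CPM in Mock (SD, n = 5 each). Their log2 fold changes were -1.01 ± 0.25 for PYL1 and -1.58 ± 0.40 for PYL9 (SE; edgeR adjusted p = 0.00897 for PYL1 and 0.0108 for PYL9). PYL6 (-2.05) and PYL2 (-1.16) were also called, but PYL6 not without TSA replicate 4 (adjusted p = 0.0508), and PYL2 lost it without Mock replicate 1, 2, 3 or 4 or TSA replicate 1, 2, 3 or 5 (adjusted p up to 0.0957).

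Of the 10 SnRK2 kinase genes, whose products are substrates or relatives of substrates of the phosphatases, 2 rose and 2 fell. That is 40% called, beside 35.2% of all genes. SnRK2.8, a drought-responsive kinase, fell to 6.68 ± 1.32 CPM in TSA, against 30.8 ± 14.7 CPM in Mock (SD, n = 5 each; log2 fold change -2.21 ± 0.41 (SE), edgeR adjusted p = 0.00218). SnRK2.1 fell by 0.71 on the log2 scale. SnRK2.9 (log2 fold change 2.42) and SnRK2.7 (1.30) rose, but 6 of 10 single libraries ended the call of SnRK2.9 when left out (adjusted p up to 0.0717), namely Mock replicates 1 to 4 and TSA replicates 3 and 5, and SnRK2.7 lost its call without TSA replicate 3 or 4 (adjusted p up to 0.0601). None of the kinases that ABA activates most strongly, SnRK2.2, SnRK2.3 and SnRK2.6, was among the calls.

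Of the 7 transcription factor genes, 3 rose, all of them known from seeds. ABF2, which acts in vegetative tissue, fell (log2 fold change -1.11 ± 0.29). That is 57.1% called, beside 35.2% of all genes. ABI3 and ABI4 passed the count filter mainly through their TSA libraries, the group where they were high. They could hardly have been called lower. ABI5, the bZIP factor that binds ABA-responsive elements in germinating seeds, was at 9.59, 9.49, 21.3, 15.1 and 14.4 CPM in TSA libraries 1 to 5, against 0.886, 1.35, 1.88, 1.45 and 3.17 CPM in Mock libraries 1 to 5. Every TSA library lay above every Mock library, with a log2 fold change of 3.00 ± 0.37 (SE; edgeR adjusted p = 0.000264). ABI3, the B3 factor of seed maturation, was at 1.03, 3.05, 5.97, 8.29 and 2.65 CPM in TSA libraries 1 to 5, against 0.118, 0.0860, 0.256, 0.139 and 0 CPM in Mock libraries 1 to 5 (log2 fold change 5.12). ABI4 was at 0.570 to 3.47 CPM in TSA and at 0 in all Mock libraries, at least 21.0-fold higher with a floor of 3 counts per Mock library. The seed markers given above moved with these genes as well, and their part was not tested.

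Of the 8 synthesis genes tested, NCED2 and NCED5, which encode enzymes of the rate-limiting cleavage step, rose. That is 25% called, beside 35.2% of all genes. NCED2 was at 8.80, 11.1, 6.57, 6.46 and 8.06 CPM in TSA libraries 1 to 5, against 0.0591, 0.143, 0.0853, 0.0836 and 0.0651 CPM in Mock libraries 1 to 5, with no overlap. Its log2 fold change was 6.51 ± 0.33 (SE; edgeR adjusted p = 7.31e-06). NCED2 too passed the count filter through its TSA libraries, so it could hardly have been called lower. NCED5 (1.60) lost its call without Mock replicate 4 or TSA replicate 2 or 4 (adjusted p up to 0.0694). None of the 4 CYP707A genes of ABA breakdown was called by edgeR, with 0 at an unadjusted p under 0.05 and 0 called by DESeq2.

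Of the 16 response genes, 3 rose and AFP4, an ABI5-binding repressor, fell (log2 fold change -1.39). That is 25% called, beside 35.2% of all genes. HB-7, an ABA-induced homeobox gene that promotes phosphatase gene activity, was at 56.0 ± 19.7 CPM in TSA and 21.1 ± 7.97 CPM in Mock (SD, n = 5 each; log2 fold change 1.41 ± 0.30 (SE), edgeR adjusted p = 0.00418). RD29B rose by 3.47 on the log2 scale, and RD22 by 0.86, though RD22 lost its call without Mock replicate 1, 3 or 4 (adjusted p up to 0.0657). The transporter gene ABCG40, which imports ABA, averaged 56.5 ± 47.3 CPM in TSA and 9.03 ± 4.75 CPM in Mock (SD, n = 5 each; log2 fold change 2.64, edgeR adjusted p = 0.0158). Of the 3 partner and regulator genes tested, EAR1, PUB12 and PUB13, edgeR called 0, with 0 at an unadjusted p under 0.05 and 0 called by DESeq2.

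In the mutants on soil, HAI2, HAI3 and AHG1 were at or near 0. Across the 18 libraries HAI2 was at 0 to 0.322 CPM, HAI3 at 0.0253 to 0.244 CPM and AHG1 at 0 to 0.0987 CPM, and none of the 3 passed the filter. No change could be detected in them at this depth. The other 6 were tested in every contrast, and the contrasts with Col-0 share the same 3 control libraries.

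Against Col-0, none of the 6 tested members was called by edgeR in any mutant in the reported fit, without the replicate block. In h2a.z-5, the background was 0.910% of genes called, 0 members had an unadjusted p under 0.05 and DESeq2 called 0. In the libraries labelled hda6-1 the background was 3.05%, 2 members had an unadjusted p under 0.05 and DESeq2 called 1. In hda9-1 the background was 1.75%, with 0 members at an unadjusted p under 0.05 and 0 called by DESeq2. In the hda6-1 h2a.z-5-labelled libraries it was 6.01%, with 2 members at an unadjusted p under 0.05 and 0 called by DESeq2, and in hda9-1 h2a.z-5 it was 5.89%, with 1 member at an unadjusted p under 0.05 and 0 called by DESeq2. With 6 members tested, 0 calls is close to these background shares. With the replicate block, ABI2 was called in the libraries labelled hda6-1, beside 4.84% of all genes. HAB1 was called in hda9-1 h2a.z-5 under the block, beside 23.7% of all genes. In h2a.z-5, hda9-1 and the hda6-1 h2a.z-5-labelled libraries the block called 0 members, beside 3.78%, 16.3% and 14.4% of all genes.

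**Figure D4:**
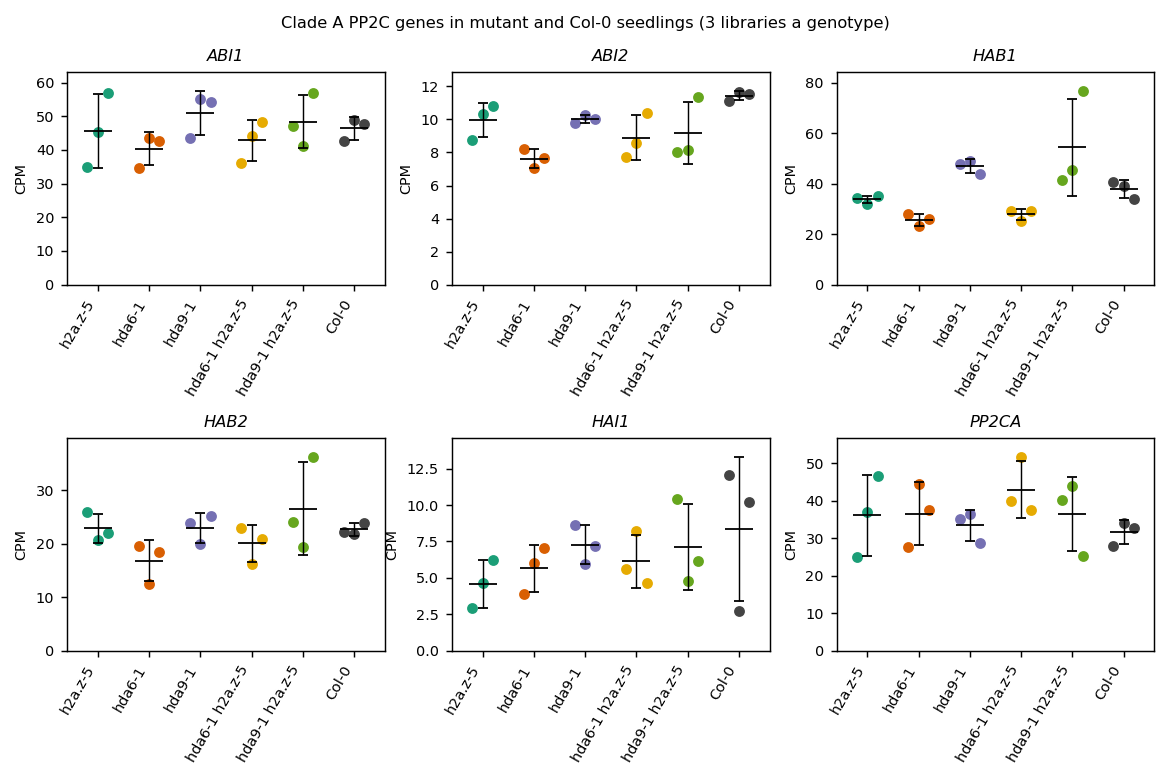
CPM (linear axes from 0) of the 6 tested members in 5 mutants and Col-0 (last). Points are libraries and bars the mean ± SD of 3. HAB1 is low in both groups labelled with hda6-1 (23.1 to 29.2 CPM) and high in both groups with hda9-1 (41.3 to 76.6 CPM), with Col-0 at 34.0 to 40.7 CPM.

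HAB1 was the 1 member that edgeR called in hda9-1 against the libraries labelled hda6-1. It was at 47.8, 49.2 and 43.9 CPM in hda9-1, against 28.1, 23.1 and 25.9 CPM in the libraries labelled hda6-1. All hda9-1 libraries lay above all those labelled hda6-1. The log2 fold change of hda9-1 over the libraries labelled hda6-1 was 0.87 ± 0.18 (SE), 1.83-fold, and edgeR called it (adjusted p = 0.00552). The other 5 tested members were not called there, beside 10.7% of all genes called.

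In the h2a.z-5 background the difference had the same sign. HAB1 was at 41.3, 45.3 and 76.6 CPM in hda9-1 h2a.z-5, against 29.1, 25.2 and 29.2 CPM in the hda6-1 h2a.z-5-labelled libraries. The groups did not overlap, and hda9-1 h2a.z-5 replicate 3 stood far above its group. In edgeR the log2 fold change was 0.97 ± 0.18 (SE), 1.96-fold (edgeR adjusted p = 0.00379), again the only one of 6 members called, beside 9.04% of all genes. Leaving out 1 library at a time kept the call, with log2 fold changes of 0.63 to 1.14. Fitted on these 6 libraries alone the adjusted p was 0.114.

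Set beside Col-0, the same libraries lay on either side without a call. Col-0 had 40.7, 38.9 and 34.0 CPM of HAB1. Set against them, the log2 fold change was -0.56 ± 0.18 in the libraries labelled hda6-1, 0.31 ± 0.18 in hda9-1, -0.44 ± 0.18 in those labelled hda6-1 h2a.z-5 and 0.52 ± 0.18 in hda9-1 h2a.z-5 (SE). The edgeR adjusted p was 0.173 in the libraries labelled hda6-1, 0.416 in hda9-1, 0.202 in those labelled hda6-1 h2a.z-5 and 0.104 in hda9-1 h2a.z-5. In hda9-1 h2a.z-5 the replicate block gave a call (adjusted p = 0.0406), as did leaving out hda9-1 h2a.z-5 replicate 1 (adjusted p = 0.0494). HAB1 in h2a.z-5 was 34.3, 32.0 and 34.9 CPM, overlapping Col-0.

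Replicate 3 of hda9-1 h2a.z-5 was high for other genes too. It had 36.2 CPM of HAB2 beside 24.0 and 19.4 CPM in its group, and 32.6 CPM of the stress gene RD26 beside 11.6 and 8.41 CPM. The jasmonate enzyme gene LOX2 was at 1417 CPM in it and at 261 and 162 CPM in its group. LOX2 was at 1371 CPM in hda9-1 replicate 3 and 1461 CPM in Col-0 replicate 3. In those libraries HAB1 was at 43.9 and 34.0 CPM, the lowest of each group. The part of these differences between replicates in HAB1 was not tested.

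ABI2 came close to the threshold in 1 contrast with Col-0. It was at 8.21, 7.04 and 7.65 CPM in the libraries labelled hda6-1, against 11.1, 11.6 and 11.6 CPM in Col-0. Every library labelled hda6-1 lay below every Col-0 library. The log2 fold change of -0.58 ± 0.16 (SE) stood just outside the threshold in edgeR (adjusted p = 0.0537) and was called with the replicate block (adjusted p = 0.0106) and by DESeq2 (adjusted p = 0.0174). ABI2 also lay below Col-0 in every library of h2a.z-5, hda9-1 and those labelled hda6-1 h2a.z-5, with log2 fold changes of -0.20, -0.19 and -0.36, none of them called. In hda9-1 h2a.z-5 it was at 8.06, 8.12 and 11.4 CPM, which overlaps Col-0 (log2 fold change -0.32, not called). The 3 Col-0 values of ABI2 spanned only 11.1 to 11.6 CPM. All of these comparisons use the same 3 values, so the separations are not independent of each other.

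The remaining members had no edgeR call against Col-0. ABI1 was at 34.7 to 56.9 CPM over all 18 soil libraries, with log2 fold changes between -0.20 and 0.14 against Col-0. HAB2 averaged 16.8 ± 3.81 CPM in the libraries labelled hda6-1 and 22.7 ± 1.13 CPM in Col-0 (SD, n = 3 each; edgeR adjusted p = 0.566). PP2CA averaged 42.9 ± 7.59 CPM in the hda6-1 h2a.z-5-labelled libraries and 31.5 ± 3.21 CPM in Col-0 (SD, n = 3 each; edgeR adjusted p = 0.373). HAI1, the gene that TSA raised, was at 2.93 to 10.4 CPM in the mutants and at 12.1, 2.74 and 10.2 CPM in Col-0. Its Col-0 libraries span the whole range of the mutants, so no mutant stood outside Col-0 for it.

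**Figure D5:**
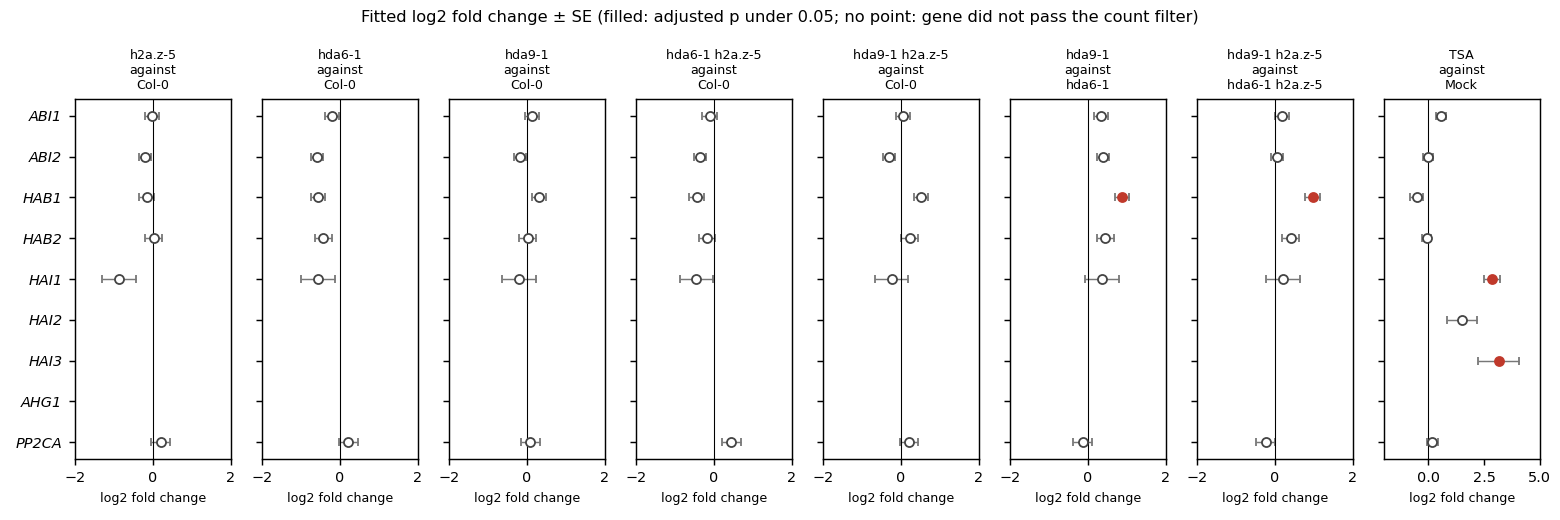
Fitted log2 fold change ± SE (horizontal axes) of the members in 8 contrasts, with filled points at edgeR adjusted p under 0.05. Filled points are HAB1 in hda9-1 against hda6-1 (0.87) and in hda9-1 h2a.z-5 against hda6-1 h2a.z-5 (0.97), and HAI1 (2.86) and HAI3 (3.16) in TSA against Mock; the last panel has a wider axis.

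Adding the deacetylase mutations to h2a.z-5, or h2a.z-5 to them, gave no edgeR call among the 6 members. The background was 2.02% for the libraries labelled hda6-1 h2a.z-5 against h2a.z-5, 2.26% for the libraries labelled hda6-1 h2a.z-5 against those labelled hda6-1, 0.640% for hda9-1 h2a.z-5 against h2a.z-5 and 0.944% for hda9-1 h2a.z-5 against hda9-1. The smallest unadjusted p belonged to HAB1 in hda9-1 h2a.z-5 against h2a.z-5 (log2 fold change 0.69 ± 0.18 (SE), edgeR adjusted p = 0.103), which DESeq2 (adjusted p = 0.0186) and the replicate block (adjusted p = 0.0249) called. In the other 3 of these contrasts 0 members had an unadjusted p under 0.05 and DESeq2 called 0. In the tests of interaction the background was 0.0530% for hda6-1 with h2a.z-5 and 0.0337% for hda9-1 with h2a.z-5. There 0 members had an unadjusted p under 0.05 and DESeq2 called 0.

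With the replicate block, 4 of the 6 members were called in hda9-1 against the libraries labelled hda6-1, beside 29.5% of all genes under the same block. Beside HAB1 these were HAB2 (adjusted p = 0.0281), ABI2 (adjusted p = 0.0296) and ABI1 (adjusted p = 0.0402), all higher in hda9-1, with log2 fold changes of 0.46, 0.39 and 0.34. PP2CA and HAI1 were not called. In the reported fit HAB1 alone was called in this contrast.

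Of the 67 other pathway genes 58 were tested on soil. Against Col-0, edgeR called 2 in the libraries labelled hda6-1 (3.45% of the 58, beside 3.05% of all genes) and 1 in hda9-1 (1.72% beside 1.75%). It called 4 in those labelled hda6-1 h2a.z-5 (6.90% beside 6.01%) and 5 in hda9-1 h2a.z-5 (8.62% beside 5.89%). In h2a.z-5 it called 0, with 5 at an unadjusted p under 0.05 and 0 called by DESeq2. Between hda9-1 and the libraries labelled hda6-1 it called 7 (12.1% beside 10.7% of all genes). Between hda9-1 h2a.z-5 and those labelled hda6-1 h2a.z-5 it called 6 (10.3% beside 9.04%). With the replicate block the counts against Col-0 were 2 for the libraries labelled hda6-1 (3.45% of the 58, beside 4.84% of all genes), 8 for hda9-1 (13.8% beside 16.3%), 7 for those labelled hda6-1 h2a.z-5 (12.1% beside 14.4%) and 14 for hda9-1 h2a.z-5 (24.1% beside 23.7%). Under the block the count was 24 in hda9-1 against the libraries labelled hda6-1 (41.4% beside 29.5% of all genes) and 23 between the combined lines (39.7% beside 28.5%). Fitted on the compared libraries alone, 0 were called between the combined lines.

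Of the 4 ABA breakdown genes, edgeR called CYP707A3 and CYP707A4 in hda9-1 h2a.z-5 and CYP707A1 and CYP707A3 in the hda6-1 h2a.z-5-labelled libraries against Col-0. That is 50% in each, beside 5.89% of all genes in hda9-1 h2a.z-5 and 6.01% in the hda6-1 h2a.z-5-labelled libraries. CYP707A3, which encodes an ABA hydroxylase, was at 14.2, 7.22 and 12.3 CPM in hda9-1 h2a.z-5 and at 12.0, 10.5 and 4.77 CPM in the hda6-1 h2a.z-5-labelled libraries, against 1.51, 2.89 and 1.21 CPM in Col-0. All 6 libraries of the combined lines lay above Col-0. CYP707A3 was 6.06-fold higher in hda9-1 h2a.z-5 (edgeR adjusted p = 0.0106) and 4.89-fold higher in those labelled hda6-1 h2a.z-5 (edgeR adjusted p = 0.0153). The first call was lost without Col-0 replicate 3 (adjusted p = 0.0627), and the second without Col-0 replicate 1 or 3 or hda6-1 h2a.z-5 replicate 1 (adjusted p up to 0.0834).

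Of the 11 receptor genes tested, 2 were called in hda9-1 against the libraries labelled hda6-1, PYR1 and PYL10, and of the 4 partners and regulators also 2, PUB13 and DOG1. That is 18.2% of the receptors and 50% of the partners and regulators, beside 10.7% of all genes. PUB13, an E3 ligase known to ubiquitinate ABI1, was at 43.6, 48.0 and 48.3 CPM in hda9-1, against 28.2, 24.9 and 27.6 CPM in the libraries labelled hda6-1 (log2 fold change 0.79 ± 0.15 (SE), edgeR adjusted p = 0.00175). The receptor gene PYR1 was lower in hda9-1, at 20.1 ± 1.71 CPM, against 34.3 ± 6.45 CPM in the libraries labelled hda6-1 (SD, n = 3 each; log2 fold change -0.77, edgeR adjusted p = 0.00507). DOG1, whose protein binds AHG1, was lower too, though at 0.0268 ± 0.0267 CPM in hda9-1 and 0.351 ± 0.0919 CPM in the libraries labelled hda6-1 it rests on few counts (log2 fold change -3.61, edgeR adjusted p = 0.00462). The calls of PUB13, PYR1 and DOG1 held when any 1 library was left out. DOG1 was too low in hda9-1 to pass the count filter through those libraries, so it could hardly have been called higher there. It is 1 of the 2 calls behind the 50% of the partners and regulators.

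The authors' deposited tables list 6 members in each mutant comparison with Col-0, 0 of them at an adjusted p under 0.05, and 8 members in TSA against Mock, 3 of them at an adjusted p under 0.05 (ABI1, HAI1 and HAI3).

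On soil, the order of levels in Col-0 was ABI1 (21.4 ± 1.54 CPM per kilobase), PP2CA (17.5 ± 1.78), HAB1 (13.6 ± 1.25), HAB2 (8.58 ± 0.43), ABI2 (5.02 ± 0.11), HAI1 (4.00 ± 2.37), HAI2 (0.119 ± 0.0447), HAI3 (0.0377 ± 0.0234) and AHG1 (0.00532 ± 0.00922) (SD, n = 3). Only ABI2 and HAI1 overlapped as neighbours. The summed level was 68.5 ± 11.8 CPM per kilobase in h2a.z-5, 60.6 ± 5.34 in the libraries labelled hda6-1, 75.6 ± 2.42 in hda9-1, 68.2 ± 3.98 in those labelled hda6-1 h2a.z-5, 79.7 ± 8.70 in hda9-1 h2a.z-5 and 70.2 ± 1.25 in Col-0 (SD, n = 3 each). Soil and sucrose-medium seedlings were counted in separate tables and were not tested against each other.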

How the data were processed

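The files held raw counts per gene, deposited by the authors as 1 table for the genotypes and 1 for TSA and Mock, and the authors' deposited tables of log2 fold changes and adjusted p-values for 6 comparisons. Per the submitters' processing notes the build was TAIR10. The protocol and tools the labels attach to these libraries are those of ChIP-seq. For RNA, library kit, aligner, counter and strand setting: not given in the sources used here. No library or gene row was left out before filtering.

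The test on counts was that of edgeR 4.0.16 under R 4.3.3 (quasi-likelihood F test, two-sided, TMM factors, filterByExpr with a minimum count of 10 and a minimum total of 15, Benjamini-Hochberg over all genes tested). All 18 genotype libraries entered 1 fit and all 10 TSA and Mock libraries another, for 14 contrasts. Called means an adjusted p under 0.05. CPM uses TMM-scaled library sizes. The script was tested on simulated data. DESeq2 1.42.0, library totals, no filter, a replicate block, fits on the compared groups and leaving out libraries were alternatives. Same-numbered samples deviated together (correlation of deviations 0.142 to 0.647 over 45 genotype pairs and 0.101 to 0.497 over 5 TSA and Mock pairs), so the numbers pair the samples. The reported fits do not use this pairing, which enters the tests only as the replicate block. With the block, 16.3% of all genes were called in hda9-1 against Col-0, beside 1.75% without it.

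All 9 members are described. Of the other pathway genes, up to 4 called per role are named for TSA and up to 3 called per other contrast, by smallest p, of which some are given as counts only. The members and lists were chosen with earlier results of these data known. Sequences, loci and exon lengths come from RefSeq TAIR10.1, found by locus tag. Replicates are independent biological ones per the series' design text. Totals of counts give counting error only.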

Additional observations from a re-analysis of the deposited data

Results flagged for a closer look

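A Dixon test was applied in groups of 5 libraries to the members and to the pathway genes called in TSA against Mock. In 8 of 56 groups examined the most extreme library stood apart from the other 4. Chance gives about 1 in 20 for a single group of normal values. The groups reuse the same libraries and are not independent, so the 2 shares cannot be compared strictly. Of the 8 flagged, 6 lie in replicate 5 and 5 of them in Mock replicate 5. ABI2 was lowest in Mock replicate 5, at 5.20 CPM, with the others at 10.2 to 11.7 CPM. HAB1 was lowest in Mock replicate 5, at 26.1 CPM, with the others at 68.7 to 79.7 CPM. HAI2 was highest in Mock replicate 3, at 1.99 CPM, with the others at 0.207 to 0.688 CPM, and AHG1 was highest in the same library, at 0.114 CPM, with the others at 0.0217 to 0.0295 CPM. Mock replicate 3 also had the highest sum of seed markers among Mock libraries, 21.7 CPM. HB-7 was highest in Mock replicate 5, at 35.3 CPM, with the others at 16.3 to 18.7 CPM. SnRK2.1 was highest there too, at 65.8 CPM, with the others at 52.6 to 55.8 CPM, as was SnRK2.9, at 1.97 CPM, with the others at 0.0860 to 0.591 CPM. PYL9 was highest in TSA replicate 5, at 11.8 CPM, with the others at 2.67 to 4.72 CPM.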

How the results depend on the processing

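In 8 of 14 contrasts the count of called members was the same under every alternative run. In the libraries labelled hda6-1 against Col-0 it was 0 in the reported fit, 1 with DESeq2 and 1 with the replicate block. In hda9-1 h2a.z-5 against Col-0 it was 0, with 1 under the replicate block and 0 to 1 when a library was left out. In hda9-1 h2a.z-5 against h2a.z-5 it was 0, with 1 under DESeq2 and 1 under the replicate block. In hda9-1 against the libraries labelled hda6-1 it was 1, with 4 under the replicate block. In hda9-1 h2a.z-5 against those labelled hda6-1 h2a.z-5 it was 1, with 0 when only the compared groups were fitted. In TSA against Mock it was 2, with 4 under DESeq2, 3 under the replicate block, 3 without both replicate 5 libraries and 1 to 3 when a library was left out. Single members kept their side of the threshold in 1026 of their fits, gained a call in 18 and lost one in 2, and no called member reversed. Fits in which a member did not pass the filter are not counted here. HAI3 dropped out in this way when some TSA libraries were left out, so its call is less stable than these counts show. The cause of these differences was not tested. The counts of the other pathway genes under the same alternatives were added after seeing the data. The share of promoter windows with ACGTG was 14.5% in a shorter window, with the same 6 members. The low counts of HAI2, HAI3 and AHG1 limit what can be detected.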

Other observations

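Across the 18 soil libraries, with group means removed, the members most alike were HAB1 and HAB2 (Pearson r = 0.694 of log2 CPM), ABI2 and HAB1 (r = 0.688) and ABI1 and ABI2 (r = 0.657). PP2CA ran opposite to HAB2 (r = -0.811) and HAB1 (r = -0.621). HAI1 had r between -0.250 and 0.281 with the other 5. These are descriptions only, and the labels name no batch for these libraries. Same-numbered libraries deviated together, as given above, and these values do not separate that out. The non-member genes most like the mean profile of the 6 tested members were NAC019 (r = 0.883), GSTU8 (r = 0.881), ERF-1 (r = 0.879), SIP1 (r = 0.876) and AT5G61820 (r = 0.868). For single members the most alike genes were RHF1A for ABI1 (r = 0.897), AT5G61820 for ABI2 (r = 0.938), BLH3 for HAB1 (r = 0.934), VAP27-2 for HAB2 (r = 0.969), AAC2 for HAI1 (r = 0.833) and AT1G63290 for PP2CA (r = 0.942).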
